A study of Homo sapiens with 3 samples.

Results

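The miR-30 family was examined in small RNA libraries from 3 strains of HCCLM3, a cell line of human hepatocellular carcinoma (HCC). Members were taken by name, as every listed mature miRNA called hsa-miR-30a to hsa-miR-30e with any arm or copy suffix. This gave 11 of the 1921 names in each count table, 5 from the 5p arm and 6 from the 3p arm of the hairpin precursors. The strains were a parent line and its derivatives subclone1 and subclone2, each with 1 library, so no ratio has a replicate check and no p-value is given. All were cultured in DMEM with no labelled treatment, and total RNA was extracted with Trizol. The organ tropism label of the parent was "low metastasis", whereas subclone1 was labelled as specific to lung and subclone2 as dual, to lung and celiac lymph node. The study itself calls its parental line, a red fluorescent derivative named HCCLM3-R, highly metastatic, so "low" is only the label of the library here. Subclones in the study were grown from single cells, and which of its clones correspond to subclone1 and subclone2 is not given in the labels.

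The parent library held 7902438 counts, subclone1 3570864 and subclone2 4568075. One count therefore stood for 0.127, 0.280 and 0.219 CPM, the counts per 1e+06 of the library total. Intervals are exact 95% intervals of the counts and cover counting error only. Of 5 hepatocyte markers, hsa-miR-885-5p had 0 counts in each library, which allows up to 0.380 CPM in the parental line, 0.840 in subclone1 and 0.657 in subclone2. The liver miRNA hsa-miR-122-5p was at only 6.71 CPM in the parental line, 5.32 in subclone1 and 3.94 in subclone2. Its log2 ratios to the parent were -0.31 (-1.17 to 0.45) and -0.74 (-1.63 to 0.03). For hsa-miR-148a-3p the values were 3.42, 6.72 and 5.47 CPM. In contrast, hsa-miR-192-5p was at 18528 CPM in the parental line, 60246 in subclone1 and 69068 in subclone2, and hsa-miR-194-5p at 108, 271 and 263 CPM. Thus the defining hepatocyte marker hsa-miR-122-5p was detected at a low level, with lower values in the subclones that were not separated from the parent. Both hepatocyte markers above 10 CPM, in contrast, were higher in the subclones, as were several miR-30 names. Whether these differences are related was not tested. In such bulk RNA, fewer cells of a kind and less RNA per cell cannot be told apart. Summed markers of leukocytes, endothelium, fibroblasts or smooth muscle, and neurons stayed at or under 2.24 CPM, erythroid markers lay between 10.1 and 16.3 CPM (nearly all hsa-miR-486-5p, with hsa-miR-144-3p at 0), and striated muscle markers were at 7.59, 23.2 and 7.88 CPM in parent, subclone1 and subclone2. The part of hsa-miR-1, which held most of the muscle sum, in the values of subclone1 was not tested.

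A miRNA guides Argonaute to transcripts mainly through its seed, the bases near its 5′ end, so members of a seed family can bind an overlapping set of targets. The miR-30 5p arms share a seed and are abundant in liver, kidney and other epithelial tissues. They are known to bind transcripts of SNAI1, a transcription factor of the epithelial-mesenchymal transition (EMT), and miR-30a is also known to bind those of the autophagy gene BECN1. For each hairpin the arms have different seeds, and one arm usually accumulates while the other is degraded.

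RefSeq mature sequences (GRCh38.p14) were matched to 7 of the 11 members. They are shown because the members differ at so few bases that short reads could be assigned to the wrong name. The seed, bases 2 to 8 from the 5′ end, is in capitals.
hsa-miR-30a-5p: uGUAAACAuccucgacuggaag
hsa-miR-30e-5p: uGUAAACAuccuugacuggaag
hsa-miR-30c-5p: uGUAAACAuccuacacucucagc
hsa-miR-30a-3p: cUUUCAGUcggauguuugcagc
hsa-miR-30e-3p: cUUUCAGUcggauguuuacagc
hsa-miR-30c-1-3p: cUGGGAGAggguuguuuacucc
hsa-miR-30c-2-3p: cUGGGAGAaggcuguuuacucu
The matched members fell into 3 seed groups, and 0 other listed names with a matched sequence carried any of these seeds. Positions are counted from 1 at the 5′ end, and the base of the first name is given first. Between hsa-miR-30a-5p and hsa-miR-30e-5p there was 1 difference, C13U, after 12 shared bases. Between hsa-miR-30a-3p and hsa-miR-30e-3p the only difference was G18A. The hsa-miR-30c-1-3p and hsa-miR-30c-2-3p sequences differed by G9A, U12C and C22U. In contrast, hsa-miR-30c-5p left hsa-miR-30a-5p after the first 12 bases and differed from it at 5 positions.

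The hairpins are shown with both mature arms in capitals, because the text groups the members by the hairpin they come from. MIR30A lies on chromosome 6 (GRCh38, 71403551 to 71403621, minus strand) and MIR30C2 on the same strand at 71376960 to 71377031, with 26519 bases between them. Both are in introns of LINC00472, a long non-coding RNA gene. MIR30E lies on chromosome 1 (40754355 to 40754446, plus strand) and MIR30C1 at 40757284 to 40757372, with 2837 bases between them. Both are in introns of NFYC, which encodes a subunit of the CCAAT-binding factor NF-Y, on its strand.
MIR30A: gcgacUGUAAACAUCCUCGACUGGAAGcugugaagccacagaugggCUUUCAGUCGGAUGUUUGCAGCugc
MIR30C2: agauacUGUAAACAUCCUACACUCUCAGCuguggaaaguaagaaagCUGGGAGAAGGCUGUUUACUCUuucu
MIR30E: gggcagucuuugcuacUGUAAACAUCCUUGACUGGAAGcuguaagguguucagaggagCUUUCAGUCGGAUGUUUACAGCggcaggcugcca
MIR30C1: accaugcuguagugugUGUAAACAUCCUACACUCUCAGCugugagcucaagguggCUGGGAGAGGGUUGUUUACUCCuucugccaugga
The chromosome 6 and chromosome 1 pairs have the same layout, a miR-30c copy beside a closely related partner. Both copies of miR-30c give the identical 5p arm, so hsa-miR-30c-5p counts cannot be divided between them, whereas the 3p arms name their copy.

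To see how much of each library the family made up, the counts of all members were summed. Together the 11 names held 22989 counts (2909 CPM) in the parental line, 13519 (3786 CPM) in subclone1 and 15439 (3380 CPM) in subclone2. The 5p arms, which carry the family seed, summed to 2738 CPM in the parental line, 3537 CPM in subclone1 and 3153 CPM in subclone2. Thus the 5p sum was 1.29-fold the parent level in subclone1 (log2 ratio 0.37, interval 0.34 to 0.40) and 1.15-fold in subclone2 (0.20, 0.17 to 0.23). The 3p arms summed to 171, 249 and 227 CPM. Their log2 ratio to the parent was 0.54 (0.42 to 0.66) in subclone1 and 0.41 (0.29 to 0.52) in subclone2.

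**Figure D1:**
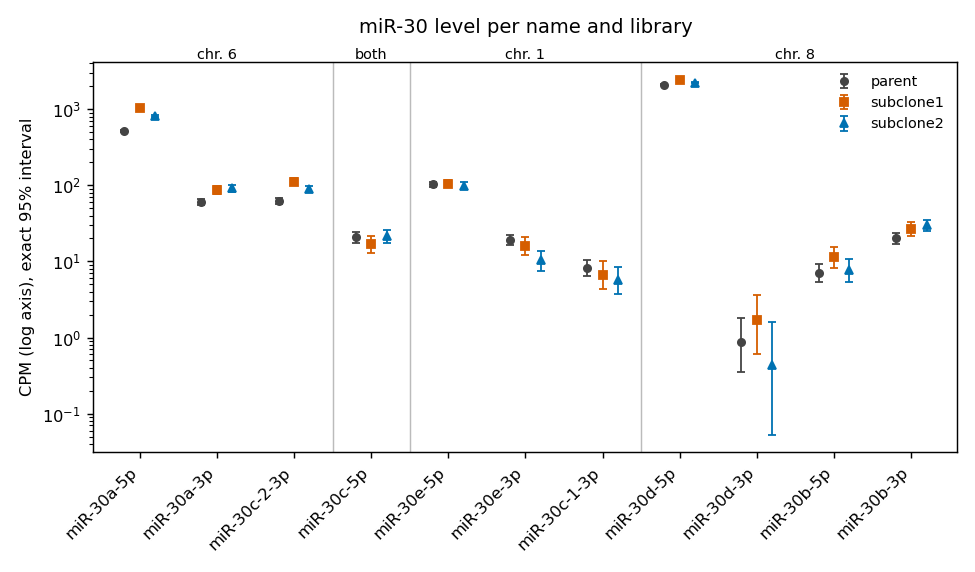
CPM of each of the 11 miR-30 names on a log axis in the parent, subclone1 and subclone2 libraries, with exact 95% intervals of the counts as bars. hsa-miR-30d-5p stands highest in each library at 2085 to 2377 CPM, hsa-miR-30a-5p lies at 523 in the parent and at 1027 and 805 in the subclones, and hsa-miR-30d-3p lies lowest at 0.438 to 1.68 CPM.

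Next, the members were ordered within each library. Comparisons between different miRNAs describe read counts only, since adapter ligation favours some ends over others. The order of the 5p arms was hsa-miR-30d-5p, hsa-miR-30a-5p, hsa-miR-30e-5p, hsa-miR-30c-5p and hsa-miR-30b-5p in each library. All neighbours in this order were separated beyond counting error except hsa-miR-30c-5p and hsa-miR-30b-5p in subclone1, with 60 and 41 counts (ratio 1.46, 0.968 to 2.23). The first member, hsa-miR-30d-5p, was the 23rd, 22nd and 23rd most abundant of all miRNAs in parent, subclone1 and subclone2. It made up 76.2% of the 5p counts in the parental line, 67.2% in subclone1 and 70.4% in subclone2. The share of hsa-miR-30a-5p was 19.1% in the parental line (18.6 to 19.6). It was larger in subclone1, at 29.03% (28.2 to 29.8), and in subclone2, at 25.5% (24.8 to 26.3), so the 3 intervals did not overlap. The other 5p arms stayed minor, with hsa-miR-30e-5p at 2.96 to 3.74%, hsa-miR-30c-5p at 0.475 to 0.753% and hsa-miR-30b-5p at 0.243 to 0.325%. Of the 799 CPM by which the 5p sum of subclone1 exceeded the parent, hsa-miR-30a-5p made up 504 (63.0%) and hsa-miR-30d-5p 292 (36.6%). Of the 415 CPM in subclone2, they made up 282 (68.0%) and 135 (32.4%). Without hsa-miR-30a-5p, the log2 ratio of the 5p sum was 0.18 (0.14 to 0.22) in subclone1 and 0.08 (0.05 to 0.12) in subclone2. These CPM differences, their split and this remainder are by the library total only. With TMM factors the log2 ratios in subclone2 were 0.79 for hsa-miR-30a-5p and 0.26 for hsa-miR-30d-5p. The split depends on the scaling and was not computed with those factors, so no main contributor is given for subclone2.

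Among the 3p arms the order was less settled. In the parent, hsa-miR-30c-2-3p and hsa-miR-30a-3p were not separated (488 and 482 counts, ratio 1.01, 0.891 to 1.15), nor were they in subclone2 (410 and 415 counts). In subclone1, hsa-miR-30c-2-3p stood above hsa-miR-30a-3p (398 and 308 counts, ratio 1.29, 1.11 to 1.504). They were followed by hsa-miR-30b-3p and hsa-miR-30e-3p, which were not separated in the parent either (159 and 152 counts, ratio 1.05, 0.832 to 1.32).

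All names that come only from the chromosome 6 hairpins had higher values in both subclones than in the parent library. The 5p arm hsa-miR-30c-5p comes from chromosome 1 as well, so it is left out of either locus here and below. It was not higher in subclone1 (log2 ratio -0.29, -0.75 to 0.14). The guide arm hsa-miR-30a-5p had 4132 counts in the parental line, 3666 in subclone1 and 3678 in subclone2, which gave 523, 1027 and 805 CPM. Both subclones were thus above the parent, by 1.96-fold in subclone1 (log2 ratio 0.97, 0.91 to 1.04) and 1.54-fold in subclone2 (0.62, 0.56 to 0.69). Its partner arm hsa-miR-30a-3p was at 61.0 CPM in the parental line, 86.3 in subclone1 and 90.8 in subclone2. This passenger strand was likewise above the parent in both, with log2 ratios of 0.50 (0.29 to 0.71) and 0.58 (0.38 to 0.77). The neighbouring hairpin gave hsa-miR-30c-2-3p at 61.8, 111 and 89.8 CPM, with log2 ratios of 0.85 (0.66 to 1.05) and 0.54 (0.35 to 0.73). Taken as a sum, these names were at 646 CPM in the parental line, 1224 in subclone1 and 986 in subclone2. The intervals of all 3 names lay above no change in both subclones.

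The names that come only from the chromosome 1 hairpins, in contrast, were level with the parent or below it by the library total. The 5p arm hsa-miR-30e-5p, which differs from hsa-miR-30a-5p at 1 base, was at 102 CPM in the parental line, 105 in subclone1 and 99.2 in subclone2. Neither subclone was separated from the parent, with log2 ratios of 0.03 (-0.15 to 0.21) and -0.05 (-0.22 to 0.12). Its partner hsa-miR-30e-3p had 152 counts in the parental line, 57 in subclone1 and 47 in subclone2, or 19.2, 15.96 and 10.3 CPM. This arm was the only member whose interval lay below the parent, and only in subclone2 (log2 ratio -0.89, -1.41 to -0.42), since that of subclone1 included no change (-0.26, -0.73 to 0.18). The neighbouring hsa-miR-30c-1-3p had 65, 24 and 26 counts (8.23, 6.72 and 5.69 CPM), too few to separate either subclone from the parent (-0.27, -1.03 to 0.40, and -0.51, -1.25 to 0.15). The sum of the names of this locus was at 129.8 CPM in the parental line, 127 in subclone1 and 115 in subclone2. Its log2 ratios were -0.03 (-0.19 to 0.13) and -0.17 (-0.33 to -0.02). With TMM factors, hsa-miR-30e-5p in subclone2 was at 0.13 (-0.04 to 0.29) and hsa-miR-30e-3p at -0.72 (-1.24 to -0.25). The sign for hsa-miR-30e-5p in subclone2 thus depended on the scaling. These factors raised the log2 ratios of subclone2 to the parent by 0.17. That is about the size of the difference of the locus sum in subclone2, so no direction is given for this sum.

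The remaining hairpins, MIR30B (GRCh38, chromosome 8, 134800520 to 134800607, minus strand) and MIR30D (134804876 to 134804945), lie 4268 bases apart with no annotated host gene. They are on a chromosome arm that is often gained in liver cancer, and miR-30d has been described in HCC cells as acting on GNAI2, a G protein subunit. The predominant member hsa-miR-30d-5p had 16476 counts in the parental line, 8489 in subclone1 and 10139 in subclone2, or 2085, 2377 and 2220 CPM. Its log2 ratios to the parent were small, although beyond counting error, at 0.19 (0.15 to 0.23) and 0.09 (0.05 to 0.13). Their order depended on the scaling, since TMM factors, which assume that most miRNAs are level, gave 0.13 and 0.26. The opposite arm hsa-miR-30d-3p had 7, 6 and 2 counts, so a difference was not detectable at this depth. From MIR30B the 3p arm was the more abundant one, with hsa-miR-30b-3p at 20.1 CPM in the parental line, 26.9 in subclone1 and 29.8 in subclone2. Both subclones were above the parent (log2 ratio 0.42, 0.04 to 0.79, and 0.57, 0.22 to 0.90), the first by a narrow margin, and its interval included no change under the other 3 scalings. The 5p arm hsa-miR-30b-5p had 56, 41 and 35 counts (7.09, 11.5 and 7.66 CPM), with log2 ratios of 0.70 (0.08 to 1.30) and 0.12 (-0.54 to 0.75). Finally, hsa-miR-30c-5p, which comes from 2 chromosomes, had 163, 60 and 98 counts (20.6, 16.8 and 21.5 CPM), and neither subclone was separated from the parent (-0.29, -0.75 to 0.14, and 0.06, -0.32 to 0.43).

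**Figure D2:**
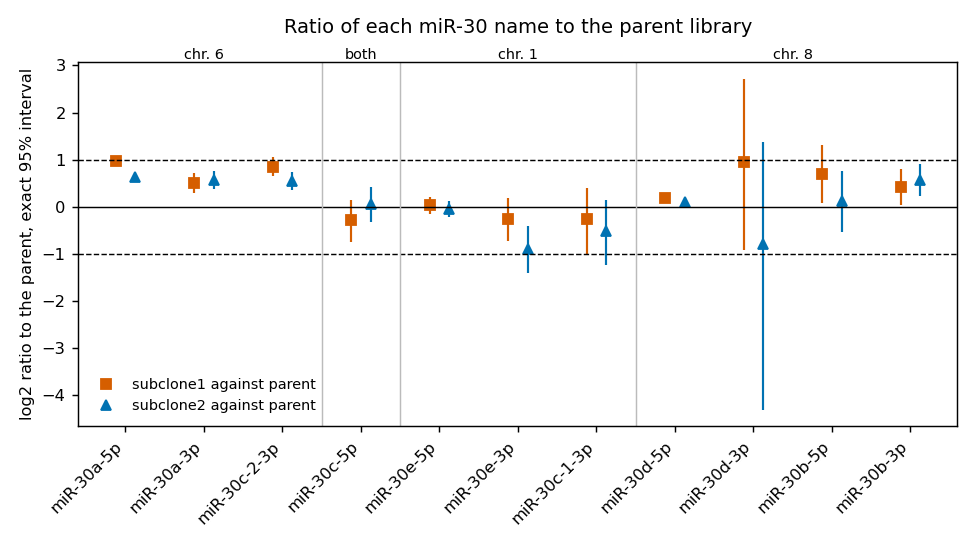
Log2 ratio of each miR-30 name in subclone1 and subclone2 to the parent library, with exact 95% intervals that cover counting error only. hsa-miR-30a-5p, hsa-miR-30a-3p and hsa-miR-30c-2-3p lie above 0 in both subclones, hsa-miR-30e-5p lies at 0.03 and -0.05, and hsa-miR-30e-3p lies at -0.89 in subclone2.

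To compare the loci without any scaling between libraries, counts of members were divided by each other within a library. The names of the chromosome 6 hairpins had 4.97 times the counts of those of chromosome 1 in the parental line, 9.61 times in subclone1 and 8.56 times in subclone2. This ratio was thus 1.93 times the parent value in subclone1 (1.72 to 2.18) and 1.72 times in subclone2 (1.54 to 1.93). Against the names of chromosome 8 it was 1.66 times (1.58 to 1.74) and 1.43 times (1.36 to 1.498) the parent value. Each sum was mostly 1 name. In the parental line hsa-miR-30a-5p held 4132 of the 5102 chromosome 6 counts, and hsa-miR-30e-5p 809 of the 1026 of chromosome 1. On chromosome 8 hsa-miR-30d-5p held 16476 of 16698. The chromosome 6 and chromosome 1 names were also divided as matched pairs of arms with nearly the same sequence. These are the same counts taken pair by pair, not further support. The ratio of hsa-miR-30a-5p to hsa-miR-30e-5p was 5.11 in the parental line, 9.80 in subclone1 and 8.12 in subclone2. For hsa-miR-30a-3p to hsa-miR-30e-3p it was 3.17, 5.40 and 8.83. For hsa-miR-30c-2-3p to hsa-miR-30c-1-3p, arms of the copies of a single miRNA, it was 7.51, 16.6 and 15.8. The intervals of all these changes excluded 1 in both subclones, the widest being that of the miR-30c copies in subclone1 (2.21 times, 1.33 to 3.76).

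Within a locus, some pairs kept the parent ratio and others did not. On chromosome 6 the ratio of hsa-miR-30a-5p to hsa-miR-30c-2-3p was 1.09 times the parent value in subclone1 (0.944 to 1.25) and 1.06 times in subclone2 (0.920 to 1.22). On chromosome 1 the ratio of hsa-miR-30e-3p to hsa-miR-30c-1-3p was 1.02 times (0.564 to 1.86) and 0.773 times (0.427 to 1.42), with wide intervals. The ratio of hsa-miR-30a-3p to hsa-miR-30c-2-3p was 0.784 times in subclone1 (0.642 to 0.957) and 1.02 times in subclone2 (0.847 to 1.24). The arms of a single hairpin also differed, with hsa-miR-30a-3p to hsa-miR-30a-5p at 0.720 times in subclone1 (0.618 to 0.839) and hsa-miR-30e-3p to hsa-miR-30e-5p at 0.552 times in subclone2 (0.382 to 0.788). Across the chromosome 1 and 8 loci, the ratio of hsa-miR-30e-5p to hsa-miR-30d-5p was 0.897 times (0.789 to 1.02) and 0.910 times (0.807 to 1.02). On chromosome 8, by contrast, the log2 ratios of hsa-miR-30b-3p (0.22 to 0.90) and hsa-miR-30d-5p (0.05 to 0.13) to the parent had intervals that did not overlap in subclone2.

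Because near-identical arms could have exchanged reads, the pairs were also summed. The sum of hsa-miR-30a-5p and hsa-miR-30e-5p was at 625 CPM in the parental line, 1131 in subclone1 and 904 in subclone2, with log2 ratios of 0.86 and 0.53. The sum of hsa-miR-30b-5p and hsa-miR-30c-5p was at 27.7, 28.3 and 29.1 CPM, with log2 ratios of 0.03 and 0.07. For hsa-miR-30a-3p with hsa-miR-30e-3p the log2 ratios were 0.35 (0.16 to 0.54) and 0.33 (0.16 to 0.51). For hsa-miR-30c-1-3p with hsa-miR-30c-2-3p they were 0.76 (0.57 to 0.94) and 0.45 (0.26 to 0.63). These sums do not tell which name of a pair differed. The sequence of hsa-miR-30d-5p, the most abundant member, was not matched, so its likeness to hsa-miR-30a-5p was not examined. Any exchange of reads with hsa-miR-30d-5p is covered only by the sum of all 5p arms (log2 ratios 0.37 and 0.20).

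The members were then set among all miRNAs. Names that reached 10 CPM as a mean of the libraries compared were kept, and a name was called when its ratio was at least 2-fold and its interval excluded no change. A call compares libraries, not conditions. In each of the 3 comparisons 8 of the 11 members were kept, while hsa-miR-30b-5p, hsa-miR-30c-1-3p and hsa-miR-30d-3p were below the minimum. Of these 8 members, 0 were called in subclone1 against the parent, where 13.0% of 192 miRNAs were called, 0 in subclone2 against the parent, where 10.7% of 187 were called, and 0 in subclone2 against subclone1, where 5.76% of 191 were called. At a 1.5-fold threshold, subclone1 against the parent gave 2 members, hsa-miR-30a-5p and hsa-miR-30c-2-3p, beside 29.2% of all miRNAs. Subclone2 against the parent gave 2 at that threshold, hsa-miR-30a-5p higher and hsa-miR-30e-3p lower, beside 26.7%. These shares of members were near the background of all miRNAs, but 8 members are too few for a firm comparison with it.

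When the interval alone was asked to exclude no change, 5 of the 8 members were higher in subclone1, beside 38.5% of all miRNAs, and 0 were lower, beside 30.2%. In subclone2, 5 were higher, beside 21.9% of all miRNAs, and 1 was lower, beside 47.6%. With TMM factors 65 of 192 miRNAs were higher and 69 lower in subclone1, and 67 of 187 higher and 52 lower in subclone2, in place of 74 and 58 and of 41 and 89 by the library total. The 5 higher members by the library total were in both cases hsa-miR-30a-5p, hsa-miR-30a-3p, hsa-miR-30b-3p, hsa-miR-30c-2-3p and hsa-miR-30d-5p. Of these, hsa-miR-30a-5p, hsa-miR-30a-3p and hsa-miR-30c-2-3p come from neighbouring hairpins of chromosome 6, so the 8 members are not separate items. The deeply counted hsa-miR-30d-5p was higher by a log2 ratio of only 0.19 in subclone1 and 0.09 in subclone2. Here too, 8 members are too few for a firm comparison with all miRNAs. Both comparisons use the same parent library, so they are not independent of each other. The median log2 ratio of the 8 members was 0.31 in subclone1 and 0.32 in subclone2, beside 0.02 and -0.15 over all miRNAs kept. By size of ratio, hsa-miR-30a-5p was the 20th of 192 in subclone1 and the 17th of 187 in subclone2, directly ahead of hsa-miR-30a-3p, hsa-miR-30b-3p and, at the 21st place, hsa-miR-30c-2-3p in subclone2. At the other end, hsa-miR-30e-3p was the 175th of 187 in subclone2.

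**Figure D3:**
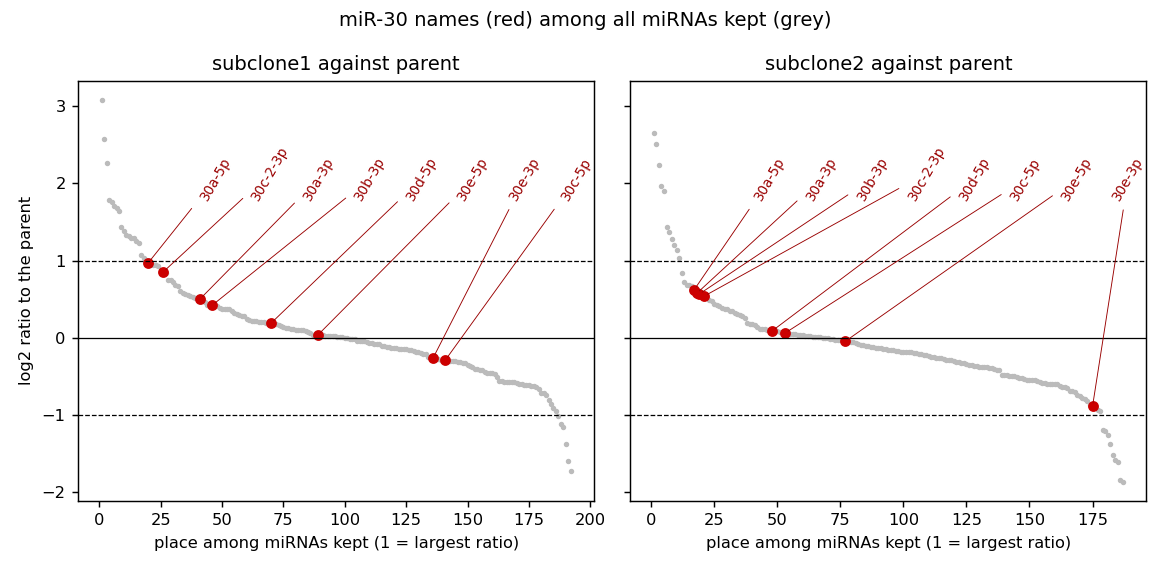
Log2 ratio to the parent of all miRNAs kept, ordered from the largest to the smallest, for subclone1 (192 miRNAs) and subclone2 (187 miRNAs), with the 8 miR-30 names in red and dashed lines at 2-fold. In subclone2 4 miR-30 names lie together at places 17 to 21 and hsa-miR-30e-3p lies at place 175, and no miR-30 name passes 2-fold in either panel.

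Subclone2 was next compared with subclone1, to see whether the subclones with different labelled tropism differed in the family. The clearest difference was in hsa-miR-30a-5p, at 1027 CPM in subclone1 and 805 in subclone2 (log2 ratio -0.35, -0.42 to -0.28). It stayed below subclone1 under the other 3 scalings, but by less, with log2 ratios of -0.21 to -0.12. The log2 ratio of hsa-miR-30e-3p was -0.63 (-1.22 to -0.05), that of hsa-miR-30c-2-3p -0.31 (-0.51 to -0.11) and that of hsa-miR-30d-5p -0.10 (-0.14 to -0.06). In all, 0 of 8 members were higher with an interval that excluded no change, beside 15.7% of all miRNAs, and 4 were lower, beside 44.0%. At 1.5-fold 1 member was called, hsa-miR-30e-3p, beside 18.8%. With TMM factors 3 members were higher (hsa-miR-30a-3p, hsa-miR-30c-5p and hsa-miR-30d-5p) and 1 was lower (hsa-miR-30a-5p). The intervals of hsa-miR-30e-3p and hsa-miR-30c-2-3p then included no change. Of all 191 miRNAs, 67 were higher and 45 lower in place of 30 and 84. No direction between the subclones is therefore given for hsa-miR-30d-5p, hsa-miR-30e-3p, hsa-miR-30c-2-3p or the 5p sum. The median of all 191 miRNAs was -0.17 by the library total and 0.07 with these factors. The ratio of chromosome 6 to chromosome 1 names, which needs no scaling, was 0.891 times the subclone1 value in subclone2 (0.779 to 1.02).

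Which arm of the hairpin accumulated differed between the members. The 3p arm made up 10.4% of the miR-30a counts in the parental line, 7.75% in subclone1 and 10.1% in subclone2. For miR-30e it made up 15.8%, 13.2% and 9.40%, and for miR-30d at most 0.0706%. These members were therefore counted mainly from the 5p arm, the one with the family seed. In miR-30b the 3p arm prevailed, with 74.0% of counts in the parental line (67.5 to 79.7), 70.1% in subclone1 and 79.5% in subclone2. Likewise, the 3p arms of both miR-30c copies made up 77.2%, 87.6% and 81.6% of miR-30c counts. Most of these 3p counts came from the chromosome 6 copy, since hsa-miR-30c-2-3p made up 88.2% of them in the parental line, 94.3% in subclone1 and 94.0% in subclone2. Beside hsa-miR-30c-5p, which both copies give, hsa-miR-30c-1-3p alone made up 28.5%, 28.6% and 21.0%. Among 84 pairs of arms with at least 100 counts in each library, 30 (35.7%) had more 3p than 5p counts in the parental line, 30 (35.7%) in subclone1 and 31 (36.9%) in subclone2.

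**Figure D4:**
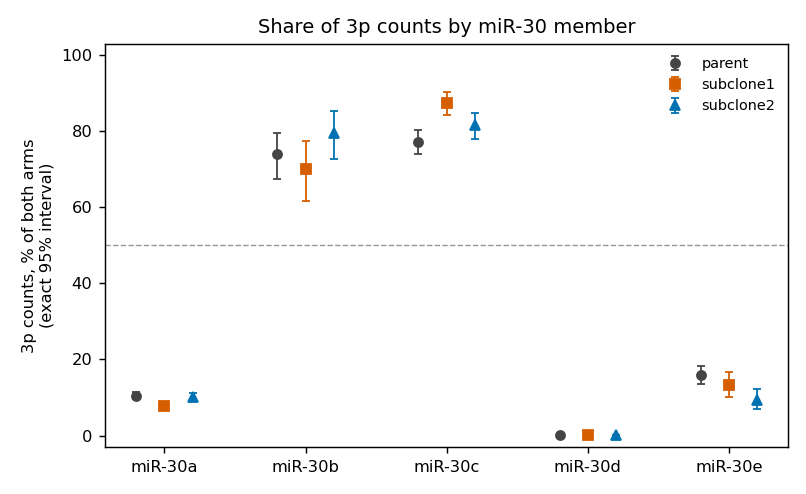
Share of 3p counts among the counts of both arms for each miR-30 member in the 3 libraries, with exact 95% intervals and a dashed line at equal counts. miR-30b (70.1 to 79.5%) and miR-30c (77.2 to 87.6%, both copies together) lie above the line, and miR-30a, miR-30d and miR-30e lie below it in each library.

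The arm shares, which do not depend on scaling, differed between libraries for some members. In subclone1 the odds of a 3p count were 0.720 times those of the parent for miR-30a (0.618 to 0.839) and 2.07 times for miR-30c (1.49 to 2.91). In subclone2 they were 0.967 times for miR-30a (0.840 to 1.11) and 1.31 times for miR-30c (0.982 to 1.76), so the intervals included no change. The miR-30e hairpin showed the converse, with odds of 0.552 times in subclone2 (0.382 to 0.788) and 0.811 times in subclone1 (0.573 to 1.14). For miR-30b and miR-30d the intervals included no change in both subclones. Because hsa-miR-30c-5p also comes from chromosome 1, the miR-30c value mixes the arms of a hairpin with the balance of the copies. Of the 4 members with a single hairpin, 1 had an interval that excluded no change in subclone1, beside 30.1% of 73 arm pairs, 1 in subclone2, beside 30.1%, and 1 between the subclones (miR-30a, 1.34 times, 1.15 to 1.57), beside 32.9%. Intervals that excluded no change were thus common among all arm pairs, although this share depends on depth as well as on size. The median absolute log2 odds ratio over the 73 pairs was 0.47 in subclone1, beside -0.47 for miR-30a there. In subclone2 it was 0.45, beside -0.86 for miR-30e.

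Other miRNAs that share a function or a layout with the family were listed for comparison. Of 8 miRNAs known to bind transcripts of EMT transcription factors, 4 were kept. In subclone1 0 of them were called, beside 13.0% of all miRNAs, and in subclone2 1 was higher and 1 lower than the parent, beside 10.7%. The higher was hsa-miR-200a-3p, which targets ZEB1 and ZEB2, at 27.8 CPM in the parental line, 44.8 in subclone1 and 61.1 in subclone2 (log2 ratios 0.69 and 1.13). The lower was hsa-miR-34a-5p, a p53 target that binds SNAI1 transcripts as miR-30 does, at 32.3, 16.5 and 10.5 CPM (-0.96 and -1.61). The other kept members were hsa-miR-200b-3p (log2 ratios 0.55 and 0.66) and hsa-miR-200c-3p (0.51 and 0.52). The median of the kept members was 0.53 in subclone1 and 0.59 in subclone2, beside 0.02 and -0.15 over all miRNAs kept. All kept members except hsa-miR-34a-5p were thus miR-200 names, so this median describes mainly that family. Among like families of a single seed and several hairpins, the let-7 sum was at 668914, 670761 and 691417 CPM, the miR-29 sum at 19425, 21134 and 19434 CPM, and the miR-26 sum at 946, 827 and 637 CPM. In each of them 0 members were called in either subclone, of 9 kept in let-7, 3 in miR-29 and 2 in miR-26, beside the same 13.0% and 10.7%, and so few members allow no comparison with the background. The log2 ratios of the let-7 5p arms ranged from -0.57 to 0.42 in subclone1 and from -0.29 to 0.48 in subclone2, and those of the kept miR-30 5p arms from -0.29 to 0.97 and from -0.05 to 0.62.

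The miRNAs with a pattern most like the 5p sum were found among 86 other miRNAs whose mean reached 100 CPM, by the distance between their log2 ratios to the parent. The nearest was hsa-miR-140-3p (0.31 in subclone1 and 0.33 in subclone2, distance 0.135). It was followed by hsa-miR-185-5p (0.28 and 0.09, distance 0.143) and hsa-miR-452-5p (0.37 and 0.02, distance 0.181). Next came hsa-miR-224-5p (0.43 and -0.01, distance 0.222) and hsa-miR-23a-3p (0.22 and -0.01, distance 0.255). These distances rest on 3 libraries and are a description only.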

How the data were processed

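Per the labels, 1 ug of total RNA from each HCCLM3 strain entered the Illumina TruSeq Small RNA kit. The authors deposited unscaled read counts per mature miRNA name, 1 library per group, and groups were taken from the sample titles. The submitters' processing notes name CASAVA 1.4 and hg19 without a role. Adapter trimming, aligner, mismatch limit, miRBase release and the handling of multi-mapping reads are not given in the sources used here.

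Counts were scaled to the library total (CPM). For every miRNA whose mean reached 10 CPM in the contrast, the log2 ratio was computed with 0.5 counts added, with an exact 95% conditional binomial interval. Shares have Clopper-Pearson intervals. No molecular identifiers were given, so these cover counting error only. The totals of 3570864 to 7902438 counts set the precision. With 1 library per group no count test was run. Of the listed names, 6 had identical counts in all libraries, of which 0 were members.

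Named miRNAs are all miR-30 names, the 5 nearest to the 5p sum, the called members of the EMT list, the hepatocyte markers and the sums of like families. Other marker names and the uncalled kept members of the EMT list were added after their values were seen. Members and lists were chosen with earlier results of these data known. Alternatives were TMM factors (edgeR), median-of-ratios factors, the total after removing the 10 highest miRNAs per library, minimums of 100 CPM and none, a 1.5-fold threshold, a pseudocount of 5 and summed similar arms. Sequences are from RefSeq (1576 of 1921 names matched) and positions from GENCODE release 29 (GRCh38). The procedure was tested on simulated data. Python 3.11.15, numpy 2.4.6, scipy 1.17.1, pandas 2.3.3, matplotlib 3.10.9, R 4.3.3 and edgeR 4.0.16 were used.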

Additional observations from a re-analysis of the deposited data

Results flagged for a closer look

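For 3 members the subclones lay on opposite sides of the parent. hsa-miR-30c-5p had a log2 ratio of -0.29 in subclone1 and 0.06 in subclone2, hsa-miR-30e-5p 0.03 and -0.05, and hsa-miR-30d-3p 0.94 and -0.79. Each of these intervals included no change, hsa-miR-30d-3p rests on 2 to 7 counts per library, and both ratios share the parent library. With 1 library per group the difference between the subclones was not tested.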

How the results depend on the processing

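No paired analysis was possible because there was 1 library per strain, so no replicate could be left out either. By the library total, the log2 ratio of the 5p sum was 0.37 for subclone1 to parent, 0.20 for subclone2 to parent and -0.17 for subclone2 to subclone1. With TMM factors it was 0.31, 0.37 and 0.067, with median-of-ratios factors 0.30, 0.35 and 0.048, and with the total without the most abundant miRNAs 0.30, 0.28 and -0.022. The difference between the subclones had no stable sign. TMM factors moved the median of all miRNAs by -0.06, 0.17 and 0.23. Under each of these 3 scalings the interval of hsa-miR-30b-3p in subclone1 included no change, which left 4 members higher. With TMM factors the split of all miRNAs into higher and lower by interval went from 74 and 58 to 65 and 69 in subclone1, from 41 and 89 to 67 and 52 in subclone2, and from 30 and 84 to 67 and 45 between the subclones. In the same order of comparisons, calls over all miRNAs numbered 67, 75 and 33 with no minimum, 7, 5 and 2 with a minimum of 100 CPM, and 56, 50 and 36 at 1.5-fold, where 2, 2 and 1 members were called. Of 144 values for ratios of members and sums, 112 stayed within their intervals and 32 moved beyond them. Summing miR-30a with miR-30e put their share of the 5p counts at 22.8% in the parental line, 32.0% in subclone1 and 28.7% in subclone2. Depth limits the names under 10 CPM, where 1 count stands for up to 0.280 CPM.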
